A study of Mus musculus with 4 samples.

Results

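The 10 genes described here encode RNA-binding proteins of the Elav, Celf and Nova families. They are *Elavl1*, *Elavl2*, *Elavl3*, *Elavl4*, *Celf1*, *Celf2*, *Celf3*, *Celf4*, *Celf5* and *Nova1*. Members were taken as all gene probes whose deposited symbol is one of these names, 10 of 29924 gene names on the array. The 7 genes *Elavl2*, *Elavl3*, *Elavl4*, *Celf3*, *Celf4*, *Celf5* and *Nova1* are known as mainly neuronal, and *Elavl1*, *Celf1* and *Celf2* as ubiquitous or broadly expressed. The set was chosen by the mutant over control ratios of these same arrays, so those ratios are given as a description. No p is printed for them, and counts of members past a threshold stand only beside the share of all genes.

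Each of the 4 arrays set a pool of E14.5 *Sox2-Tbx2LOF* cochlear ducts against a pool of control ducts, with the pools labelled in Cy3 and Cy5. The mutants carried *Sox2*(creERT2) and *Tbx2*(fl/fl), and the labels give the controls as *Tbx2*(fl/n.d.), whereas the methods call them cre-negative. In the crosses of the methods, mutants and their littermates also carry 1 copy of the *R26* mTmG reporter. All embryos were on the NMRI background, and all dams received 4 mg of tamoxifen by mouth in a single pulse at E12.5. The cre is inserted at *Sox2* and acts only with tamoxifen and in cells that use this locus, and whole ducts also hold cells outside the *Sox2* domain. The spiral ganglion was removed at dissection. Arrays 1 and 2 held female and arrays 3 and 4 male pools. Mutant RNA carried Cy5 on arrays 1 and 3 and Cy3 on arrays 2 and 4.

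Median spot brightness was 263 to 292 in Cy3 and 496 to 563 in Cy5, over local backgrounds of 25 in Cy3 and 85 to 95 in Cy5. Between 69.2% and 72.0% of probes were well above background in a channel. None of the 100 spots of the 10 genes on each array was saturated. The *Tbx2* probe lies at base 3502 of its transcript, and its position relative to the *loxP*-flanked part is not given in the sources used here, so its log2 ratio of -0.12 ± 0.10 (SD, n = 4) does not check the deletion. The epithelial markers *Epcam*, *Cdh1*, *Pax2* and *Oc90* were well above background in all 8 pools, as were *Sox2* and *Jag1* of the prosensory domain.

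Elav proteins bind U-rich and AU-rich stretches of mRNA and are known to stabilise their targets and to steer their splicing and translation. Celf proteins bind GU-rich RNA and act on alternative splicing and on mRNA decay, and Nova proteins are splicing regulators of neurons. In both the Elav and the Celf family, neuronal paralogues appear as neurons leave the cell cycle, while *Elavl1* and *Celf1* are active in most cell types. *Elavl3* and *Elavl4* are in common use as marker genes of young neurons.

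The promoters of *Elavl3* and *Celf3* are shown because these members had the lowest ratios of mutant over control described below. Each sequence runs from 250 bases before to 50 bases after the outermost RefSeq start (build GRCm38.p6), 5′ to 3′ on the gene's own strand, and capitals mark the E-box CAGCTG, a motif bound by proneural bHLH factors among others.

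Elavl3, chr9:22051974-22052273, minus strand: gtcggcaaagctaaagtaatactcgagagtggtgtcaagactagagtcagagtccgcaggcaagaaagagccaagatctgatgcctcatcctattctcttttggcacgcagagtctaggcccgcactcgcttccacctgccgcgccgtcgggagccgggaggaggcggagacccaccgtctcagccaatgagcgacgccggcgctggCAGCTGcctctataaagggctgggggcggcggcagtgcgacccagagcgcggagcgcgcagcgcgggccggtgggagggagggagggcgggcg
Celf3, chr3:94478045-94478344, plus strand: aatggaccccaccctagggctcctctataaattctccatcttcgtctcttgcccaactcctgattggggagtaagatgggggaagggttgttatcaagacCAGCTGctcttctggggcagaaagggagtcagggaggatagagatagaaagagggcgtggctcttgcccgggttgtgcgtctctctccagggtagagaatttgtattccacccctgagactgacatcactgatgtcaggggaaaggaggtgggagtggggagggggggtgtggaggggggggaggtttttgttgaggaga

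Each window holds 1 CAGCTG. Promoters of 9 of the 10 members were matched by symbol, and CAGCTG, read on both strands, was found in those of *Elavl2*, *Elavl3*, *Celf3* and *Nova1*. Of all 27025 promoters of the same length, 16.1% hold it. The E-box CAGATG (17.3% of all promoters), the T-box motif GGTGTGA (3.96%) and TTCAGCACC (0.37%), the left part of the RE1 element read by the repressor REST, were in none of the 9. The GC content of the 9 windows ran from 46.7% (*Celf2*) to 74.3% (*Celf1*), with 65.3% in that of *Elavl3*, beside a median of 52.7% over all promoters. Only the outermost start of each gene was searched, while *Celf3* has 7 listed starts, *Elavl2* 6 and *Elavl3* 1. These matches are letters in a window and say nothing of binding.

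The fall was uneven across the neuronal paralogues. *Celf3* and *Elavl3* were lower in the mutant pool by more than 2-fold on average, *Elavl2* and *Elavl4* were lower by 1.3-fold, and *Celf4*, *Celf5* and *Nova1* stood within 0.10 of 0 on the log2 scale. The broadly expressed *Elavl1* and *Celf1* were within 0.06 of 0, and *Celf2* was at -0.15. A gene counted as called with an adjusted p below 0.05 in limma over all 21042 genes tested and a change of at least 1.5-fold. Called lower were 2 of the 10 members, *Elavl3* and *Celf3*, beside 0.309% of all tested genes, and called higher was none, beside 0.133%. An adjusted p below 0.05 in the lower direction was met by 4 members (*Elavl2*, *Elavl3*, *Elavl4* and *Celf3*), beside 2.92% of tested genes, and in the higher direction by none, beside 2.26%. Without the dye term *Elavl4* did not meet it, and with the channels as unpaired pools only *Elavl2* did. Because the ratios chose the members, nothing is read from these shares.

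**Figure D1:**
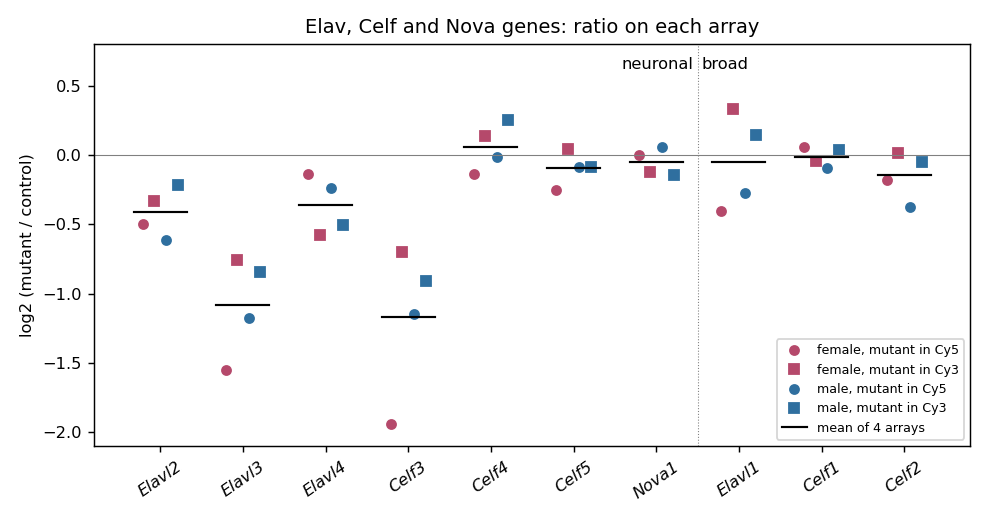
Log2 ratio of mutant over control on each of the 4 arrays for the brightest probe of each of the 10 genes; colour gives the sex of the pools, shape the dye of the mutant, and the bar the mean of 4 arrays. *Elavl2*, *Elavl3*, *Elavl4* and *Celf3* are below 0 on 4 of 4 arrays, and the other genes lie around 0.

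*Celf3*, a splicing regulator of the nervous system, had the lowest mean ratio of the 10 genes over 4 arrays. Without array 1 the order turned, with *Celf3* at -0.97 and *Elavl3* at -0.99. Its normalised signal on the log2 scale was 9.02, 7.83, 8.71 and 7.90 in the control pools of arrays 1 to 4, and 7.08, 7.13, 7.57 and 6.99 in the mutant pools. The highest mutant pool was below the lowest control pool, and the control pools of arrays 1 and 3, labelled in Cy3, were the 2 highest. The log2 ratios were -1.94, -0.70, -1.14 and -0.91, with a mean of -1.17 ± 0.54 (SD, n = 4), or a control level 2.25-fold that of the mutant. The mean log2 ratio was -1.54 on the 2 arrays with mutant RNA in Cy5 and -0.80 on the 2 arrays with mutant RNA in Cy3. The only *Celf3* probe lies at chr3:94295991-94296049 (mm9, plus strand), at base 2901 of its transcript.

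*Elavl3*, which encodes HuC, had values close to those of *Celf3*. Control pools read 9.05, 8.08, 8.98 and 8.08 and mutant pools 7.49, 7.32, 7.81 and 7.24 on the log2 scale, again without overlap. The log2 ratios of -1.55, -0.76, -1.17 and -0.85 gave a mean of -1.08 ± 0.36 (SD, n = 4), with the control level 2.12-fold that of the mutant. With mutant RNA in Cy5 the mean was -1.36, and with mutant RNA in Cy3 it was -0.80. Its single probe lies at chr9:21822471-21822530 (mm9, minus strand), at base 1945 of the transcript.

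The size of both ratios differed between ways of making the values. With Agilent's processed signals, the log2 ratio was -1.87 for *Celf3* and -1.60 for *Elavl3*, in the authors' series value table it was -1.88 and -1.61, and with median centring it was -1.12 and -1.03. When the channels were compared as unpaired pools, the mean ratios were unaltered and neither gene was called.

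**Figure D2:**
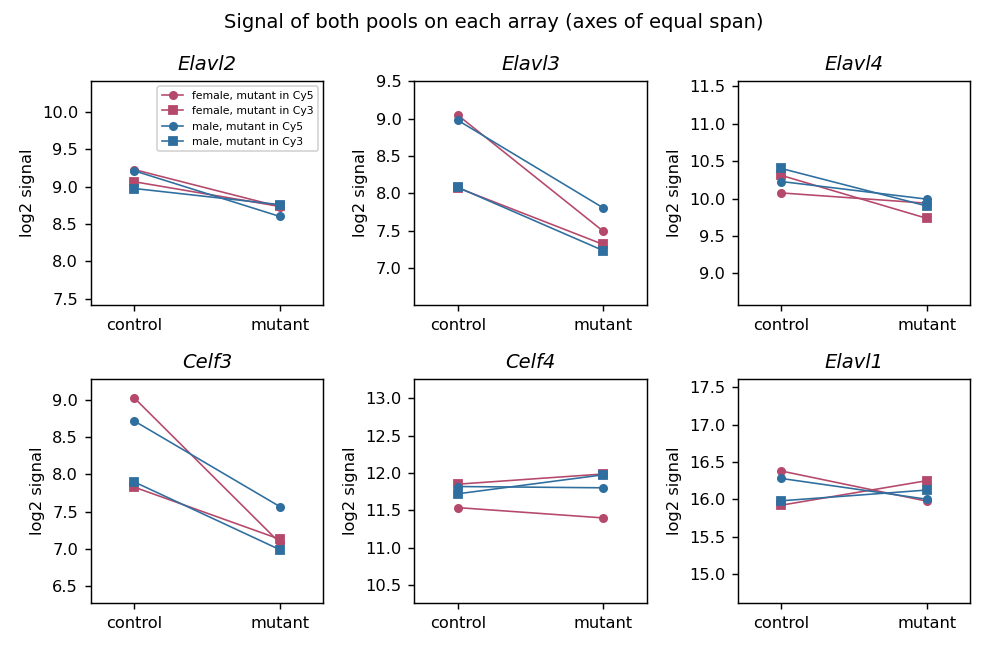
Normalised log2 signal of the control and the mutant pool of each array, joined by a line, for 6 genes on vertical axes of equal span; colour gives sex and shape the dye of the mutant. Mutant pools lie below all control pools for *Elavl2*, *Elavl3*, *Elavl4* and *Celf3*, while the pools overlap for *Celf4* and *Elavl1*.

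*Elavl2*, which encodes HuB, was lower by less. The control pools read 9.23, 9.07, 9.21 and 8.98 and the mutant pools 8.73, 8.74, 8.60 and 8.76 on the log2 scale. All mutant pools were below all control pools, with a mean log2 ratio of -0.41 ± 0.17 (SD, n = 4) and a control level 1.33-fold that of the mutant. A second *Elavl2* probe, nearer the start of the transcript, was well above background in 2 of 4 control pools and in none of the mutant pools. Its log2 ratio of -0.17 ± 0.16 (SD, n = 4) therefore rests mostly on signals at background. The pools of this probe overlapped, and it was lower on 3 of 4 arrays and at 0.04 on array 2.

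*Elavl4*, which encodes HuD, read 10.08, 10.31, 10.23 and 10.40 in the control pools and 9.94, 9.74, 9.99 and 9.90 in the mutant pools. These groups were also separate, with a mean log2 ratio of -0.36 ± 0.21 (SD, n = 4) and a 1.29-fold higher control level. Its dye means ran opposite to those of *Celf3*, at -0.19 with mutant RNA in Cy5 and -0.54 with mutant RNA in Cy3. The second *Elavl4* probe was lower on 3 of 4 arrays, at -0.19 ± 0.29 (SD, n = 4), and its pools overlapped.

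Mutant pools lay below all control pools for 4 of the 10 members, beside 2.59% of all tested genes, and above all control pools for none, beside 1.75%. In pooled tissue, fewer cells that express these genes and less of their RNA per cell cannot be told apart. Which cells of the ducts expressed them was not tested.

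The remaining neuronal paralogues had overlapping pools. *Celf4*, which acts on synaptic transcripts, read 11.54 to 11.85 in control and 11.40 to 11.99 in mutant pools, its log2 ratio being 0.06 ± 0.17 (SD, n = 4), and its other tested probe was at -0.01. *Celf5* had a log2 ratio of -0.10 ± 0.12 (SD, n = 4) and was lower on 3 of 4 arrays. *Nova1* had a log2 ratio of -0.05 ± 0.10 (SD, n = 4), with its 3 probes between -0.05 and -0.02. Its brightest probe had mean signals of 7.68 in mutant and 7.73 in control pools, much closer to background than *Celf4*. Both further *Celf5* probes and 1 of 3 *Celf4* probes were not well above background in any pool. The further paralogues *Celf6* and *Nova2* were at -0.08 and 0.03, with pools that overlapped.

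Among the broadly expressed paralogues, *Elavl1*, which encodes the mRNA-stabilising HuR, stood at -0.05 ± 0.35 on the log2 ratio scale (SD, n = 4). Its array values were -0.40, 0.33, -0.28 and 0.14, following the dye, while the second *Elavl1* probe was at -0.07 ± 0.10 (SD, n = 4). *Celf1*, a regulator of splicing and decay of GU-rich mRNA, had 3 tested probes between -0.01 and 0.01. *Celf2* had 3 tested probes between -0.15 and -0.01, and 2 further probes that were not well above background in any pool.

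**Figure D3:**
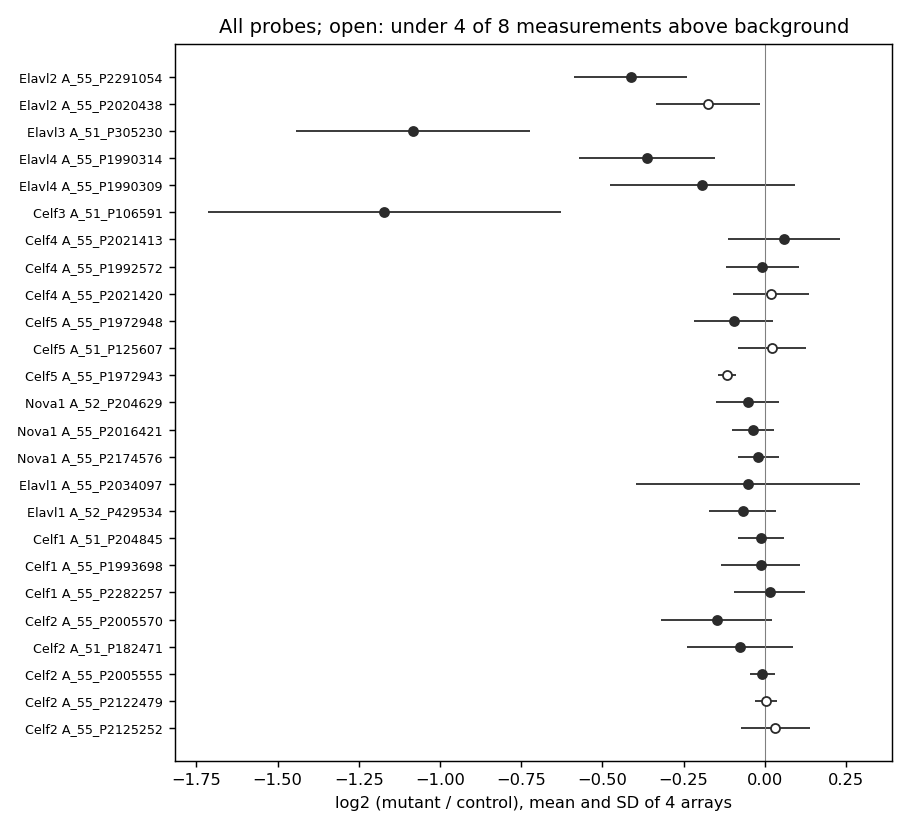
Mean log2 ratio of mutant over control with its SD over 4 arrays for all 25 probes of the 10 genes; open circles are probes with fewer than 4 of 8 channel measurements well above background. The probes of *Celf3* and *Elavl3* lie near -1, and the probes of *Celf1*, *Celf4* and *Nova1* lie around 0.

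The median log2 ratio of the 7 neuronal paralogues was -0.36, and on arrays 1 to 4 it was -0.25, -0.33, -0.24 and -0.22. That of the 3 broadly expressed paralogues was -0.05, and -0.18, 0.01, -0.28 and 0.04 on the arrays. The ranges of the array medians overlapped. The median over all tested genes was 0.0024.

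Sex was not used in choosing the genes, so its effects were tested with limma over all tested genes. For no member was a difference in ratio between male and female pools called. The interaction was called for 0% of all tested genes, 0 of 21042. An unadjusted p below 0.05 in limma was met by 558 of them, none a member. The differences of log2 ratios, male minus female, ran from -0.13 (*Celf2*, SE 0.09) to 0.29 (*Celf3*, SE 0.18), each with an adjusted p of 1.00. For no member was a difference in level, averaged over both channels, called between male and female arrays, beside 0.038% of tested genes. These level differences ran from -0.08 on the log2 scale (*Nova1*, SE 0.09) to 0.14 (*Celf4*, SE 0.15), with an adjusted p of 1 for each member. The SE of the level difference was largest for *Elavl3* (0.29) and *Celf3* (0.28). With 2 arrays per sex, differences of the size of these SEs were not detectable, and differences well above them could also be missed. The lack of calls therefore does not show that the sexes were alike.

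Other RNA-binding regulators were described from lists of general knowledge. Of 22 other splicing regulators, all tested, none was called, and 2 fell with an adjusted p below 0.05 in limma, beside 2.92% of all tested genes. These were *Srrm4*, which promotes neuronal microexons, at -0.38 ± 0.52 (SD, n = 4; adjusted p = 0.04999) and its relative *Srrm3* at -0.18 ± 0.08 (SD, n = 4; adjusted p = 0.047), the latter named after its value was seen. *Srrm4* was lower on 3 of 4 arrays and higher on the other. *Ptbp3* and *Rbfox3* were at -0.20 each, with adjusted p of 0.0503 and 0.0683. The median of the list was -0.03. Of 16 other regulators of 3′ end use, decay and translation, none passed in either direction, the median was -0.02, and the largest values were *Fxr2* at 0.12, *Tial1* at -0.09 and *Hnrnpd* at -0.09.

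Transcripts known as targets of Elav, Celf or Nova proteins did not move one way. The 6 tested had a median of 0.0060 and no call. *Gap43*, a growth cone gene stabilised by HuD, fell by 0.19 on the log2 scale (SD 0.08, n = 4; adjusted p = 0.037, limma), and *Cdkn1a*, a cell cycle inhibitor bound by HuR, rose by 0.25 on 4 of 4 arrays (SD 0.04, n = 4; adjusted p = 0.0072). *Mapk9* was at -0.07 with an adjusted p of 0.36. *Glra2* was not well above background in any pool.

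Neuron markers moved in both directions beside these values. Of 18, 15 were tested. *Pou4f1*, a sensory neuron transcription factor, and the neurofilament genes *Nefm* and *Ina* were called lower at -0.75, -0.72 and -0.71. With an adjusted p below 0.05, 6 markers fell and 3 rose, beside 2.92% and 2.26% of all tested genes, and the median was -0.10. Those that fell without being called were *Nefl* at -0.48, *Stmn2* at -0.41 and *Tubb3* at -0.39, and those that rose were *Syt1* at 0.24, *Isl1* at 0.20 and *Ntrk3* at 0.16. *Neurod4* and *Nhlh2* were not well above background in any pool, and *Neurod1* was so in 2 control pools and no mutant pool. The summed normalised signal of the tested neuron markers was 66394 to 73274 in mutant and 67243 to 70401 in control pools. Of 7 Schwann cell precursor markers, *Foxd3*, *Fabp7* and *Cdh19* were called lower at -1.17, -1.03 and -0.63, and *Sox10* was at 0.01; the summed signal was 169167 to 196171 in mutant and 172002 to 201947 in control pools. The paper counts *Fabp7* with the lowered genes known from the inner compartment, so its ratio is not particular to Schwann cell precursors. The part of neurons and Schwann cell precursors in the ratios of *Celf3* and *Elavl3* was not tested.

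No gene of the other marker lists was called. Prosensory markers had a median of -0.08, with *Fgf20* at -0.54, *Lfng* at -0.52 and *Hey2* at 0.36, all 3 with an adjusted p below 0.05 in limma. Hair cell markers had a median of 0.05, led by *Myo7a* at 0.17, *Lhx3* at 0.12 and *Gfi1* at -0.09, and cochlear duct epithelium markers a median of 0.07, led by *Gata3* at 0.34, *Cdh1* at 0.18 and *Krt18* at 0.08. Mesenchyme markers had a median of 0.08, led by *Col1a1* at 0.27, *Twist1* at 0.15 and *Pdgfra* at 0.09, and blood markers a median of 0.16, led by *Hbb-y* at 0.21, *Hba-a1* at 0.19 and *Hbb-b1* at 0.13. An adjusted p below 0.05 in limma was also met by *Jag1* at -0.19, *Myo7a*, *Gata3* and *Col1a1*, and by no blood marker.

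**Figure D4:**
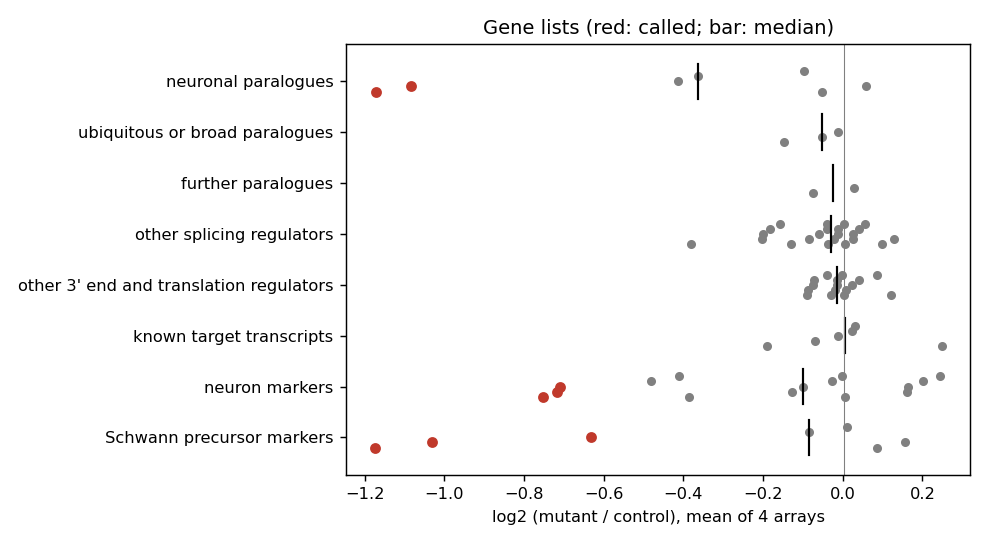
Mean log2 ratio of mutant over control of each tested gene in 8 lists, with called genes in red, the list median as a bar and the median of all tested genes as the vertical line. Called genes lie among the neuronal paralogues, the neuron markers and the Schwann cell precursor markers.

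The pattern most like that of *Celf3* over the 4 arrays was sought among 21032 tested genes outside the 10 by the Euclidean distance of the log2 ratios. The 5 nearest were *Pou4f2* (distance 0.50), *Pvalb* (0.59), *Foxa2* (0.68), *Hes5* (0.70) and *Lrrtm1* (0.73), with mean log2 ratios of -1.01, -1.23, -1.14, -0.95 and -1.07. *Elavl3* itself lay at a distance of 0.39, nearer than any of these. The distance includes the size of the fall and uses the ratios that chose the members, so nearness is given only as a description. *Pou4f2* encodes a transcription factor of sensory neurons, *Pvalb* a calcium-binding protein, *Foxa2* a forkhead factor and *Hes5* a target of Notch signalling. *Pvalb* is also among the lowered genes that the paper describes as known from the inner compartment.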

How the data were processed

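The authors deposited, for each of 4 two-colour arrays, the output of Agilent Feature Extraction 10.7.3.1 (version per the submitters' processing notes). The authors' deposited intensity values are mean spot and median local background brightness, not normalized, and a processed intensity after background subtraction and dye normalization. A deposited log10 ratio of processed Cy5 over Cy3 was only used to check dye direction. The deposited series value table holds a score that behaves like a signed fold change, mutant relative to control (correlation with the ratios computed here 0.882 to 0.913), with scale and centring not stated. Coordinates are those of the files (mm9), for which no annotation of exons was used.

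Background was corrected with normexp (offset 50) and ratios were normalized by loess within arrays in limma 3.58.1 (R 4.3.3), without control and flagged spots. The 4 spots of a probe were averaged, and the brightest tested probe stood for a gene. Genes with at least 4 of 8 channel measurements well above background were tested (21042), with genotype and a dye term, 2 residual and 5.65 prior degrees of freedom. Channel signals were set on one scale with Aquantile. The methods describe 4 independent, sex-sorted pools per genotype, paired here by the array they share. All arrays lie on 1 slide. The members, gene lists and comparisons were chosen with earlier results of these data known. Named were all members, called genes of each list or otherwise its 3 largest changes, *Tbx2*, and the 5 genes nearest to *Celf3*. Other genes in the text, such as *Celf6*, *Nova2* and further markers, were added after their values were seen. The limma steps were tested on simulated data. Promoters came from RefSeq (GRCm38.p6). A further gene of the target list is not reported here.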

Additional observations from a re-analysis of the deposited data

How the results depend on the processing

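*Elavl3* and *Celf3* were called, and no other member was, with the series value table, Agilent's processed signals, median centring, an offset of 10 in normexp, the mean over probes, a stricter or no filter on dim probes, no dye term and each array left out. With the channels as unpaired pools 0 members were called, and an adjusted p below 0.05 was met by *Elavl2* alone. No member was called higher, and none for sex, under the alternatives run. With the mean over probes, the neuronal median was -0.28. Leaving out 1 array at a time gave *Celf3* log2 ratios of -1.37 to -0.97, *Elavl3* -1.18 to -0.99, *Elavl2* -0.44 to -0.38 and *Elavl4* -0.39 to -0.34. The sign of *Celf1* changed among alternatives (-0.04 to 0.01). Over all genes, calls rose from 65 lower and 28 higher to 117 and 52 with processed signals, to 99 and 42 with the series value table. The number of arrays, 4, limits the precision.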
